A study of Mus musculus with 4 samples.

Results

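The windows described here lie between neighbouring mouse genes that stand almost end to end. A pair was taken where the annotated bodies of 2 protein-coding genes did not overlap and their nearest ends lay within 1 kb of each other, and its window ran from 1 kb before the gap between those ends to 1 kb after it. In the RefSeq gene table of GRCm38.p6, the mouse build also called mm10, this gave 2058 pairs, which hold 3694 of 21887 protein-coding genes (16.9%). The rule uses gene positions and no measured value, though it was set with earlier results of these data known. Macrophages had been drawn into the peritoneum of C57BL/6 mice, 8 weeks old, by thioglycollate broth and were grown as an adherent culture. They were given lipopolysaccharide (LPS, the endotoxin of bacterial outer membranes, sensed by a Toll-like receptor) or the vehicle phosphate-buffered saline (PBS) for 24 h. Chromatin immunoprecipitation sequencing of histone H3 trimethylated at lysine 4 (H3K4me3) and at lysine 9 (H3K9me3) gave 4 groups with 1 library each. There is therefore no replicate check of any difference below and no p-value, and the labels do not say how many animals a culture came from.

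H3K4me3 is laid down around the starts of active genes by SET1 and MLL methyltransferases, on the nucleosomes that flank the nucleosome-poor start itself, and CpG islands recruit those enzymes. When a pair of genes is transcribed outward from the same short stretch of DNA, the stretch is called a bidirectional promoter, and such promoters are known to be rich in CpG islands and in housekeeping, DNA repair and mitochondrial genes. H3K9me3 marks silent heterochromatin. Polymerase initiates in both directions from the shared region, so the mark can cover the nucleosomes on either flank.

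Only part of the windows can be shared promoters. The strand of both genes was known for 1470 pairs, from RefSeq promoter entries that cover 17492 genes (79.9%). Of these pairs, 581 were head-to-head (the starts of both genes face the gap), 457 were head-to-tail (1 start and 1 end at the gap) and 432 were tail-to-tail (ends of both genes at the gap). The remaining 588 pairs have no known orientation here. The label of a shared promoter thus holds for the 581 head-to-head pairs among those whose strands are known, and the tail-to-tail windows hold no annotated start at the gap. The median gap was 254 bp, with quartiles of 90 and 573 bp, and 9 gaps were 0 bp wide. Another gene lay over the gap in 36 pairs, 104 windows overlapped a second window, and 131 windows shared a peak with another window, so the windows are not independent of each other.

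The gap sequences of 8 head-to-head pairs show what the DNA between facing starts looks like: the pair with the lowest LPS to PBS ratio among these (Fkbp3/Fancm), another low pair (Calr3/1700030K09Rik), the pair with the highest ratio (Ifit1bl2/Ifit1), 3 immune pairs (Nfkbib/Sirt2, Pus7l/Irak4, Psmb9/Tap1) and 2 bidirectional promoters known from textbooks (Atm/Npat, Brca1/Nbr1). They are read from RefSeq, GRCm38.p6, on the plus strand, at chr12:65073939-65074109, chr8:72443820-72443879, chr19:34640828-34640888, chr7:28766645-28766751, chr15:94543535-94543612, chr17:34187331-34187555, chr9:53536829-53536888 and chr11:101551956-101552106 in this order, all intergenic between the annotated starts. Capitals mark matches on either strand to the CCAAT box (CCAAT or ATTGG) and the GC box (GGGCGG or CCGCCC).
Fkbp3/Fancm: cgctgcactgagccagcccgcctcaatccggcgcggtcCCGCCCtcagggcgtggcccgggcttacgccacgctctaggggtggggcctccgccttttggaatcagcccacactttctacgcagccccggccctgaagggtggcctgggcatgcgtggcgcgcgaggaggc
Calr3/1700030K09Rik: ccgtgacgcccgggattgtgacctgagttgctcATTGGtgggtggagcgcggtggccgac
Ifit1bl2/Ifit1: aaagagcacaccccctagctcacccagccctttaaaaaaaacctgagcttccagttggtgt
Nfkbib/Sirt2: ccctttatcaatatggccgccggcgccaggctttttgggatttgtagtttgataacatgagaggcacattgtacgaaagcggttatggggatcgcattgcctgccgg
Pus7l/Irak4: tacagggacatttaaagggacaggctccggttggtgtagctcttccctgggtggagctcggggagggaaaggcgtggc
Psmb9/Tap1: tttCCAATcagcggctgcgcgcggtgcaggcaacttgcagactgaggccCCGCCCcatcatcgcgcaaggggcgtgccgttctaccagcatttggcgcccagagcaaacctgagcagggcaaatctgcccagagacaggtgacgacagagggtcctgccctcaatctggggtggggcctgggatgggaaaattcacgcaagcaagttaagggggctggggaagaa
Atm/Npat: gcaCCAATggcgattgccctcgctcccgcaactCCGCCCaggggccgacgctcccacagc
Brca1/Nbr1: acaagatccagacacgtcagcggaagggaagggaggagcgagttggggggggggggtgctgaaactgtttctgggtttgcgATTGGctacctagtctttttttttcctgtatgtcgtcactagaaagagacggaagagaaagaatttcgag

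The Psmb9/Tap1 and Atm/Npat gaps held both a CCAAT box and a GC box, the Fkbp3/Fancm gap held a GC box, and the Calr3/1700030K09Rik and Brca1/Nbr1 gaps held a CCAAT box. The other 3 gaps held none of the 7 motifs searched. The Ifit1bl2/Ifit1 gap had no CpG in 61 bp and 49.2% G and C, while the Fkbp3/Fancm gap had 17 CpGs in 171 bp and 71.9% G and C. These matches describe the letters only.

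The promoter sequences of head-to-head genes differed from those of all genes in features that the choice of pairs did not use. Over the 300 bp RefSeq promoter window (250 bp before to 50 bp after the start), all 1154 head-to-head genes had an entry, and their median observed over expected CpG was 0.84 with 61.7% G and C. The medians over all 17492 promoters with an entry were 0.58 and 56.3%, and over the 14470 genes in no pair 0.51 and 55.0%. The motif of ETS family factors, CCGGAAG, stood in 27.2% of head-to-head promoters and in 11.9% of all promoters. The GC box GGGCGG, bound by SP1, stood in 66.1% against 46.3%, the CCAAT box, bound by NF-Y, in 45.7% against 39.2%, and the palindromic motif of NRF1 in 3.47% against 1.33%. The TATA box TATAAA was the reverse, in 5.81% of head-to-head promoters and 13.3% of all. The cyclic AMP response element TGACGTCA stood in 3.73% against 2.33%. The core of the interferon-stimulated response element stood in 3.21% against 3.40%. Over 454 head-to-tail genes whose start faces the gap, the median observed over expected CpG was 0.63. GGGCGG stood in 56.4% of them and CCGGAAG in 17.6%. Among genes whose window met H3K4me3 peaks with both LPS and PBS, GGGCGG stood in 68.3% of 300 head-to-tail and 67.2% of 1110 head-to-head genes. In the same order, TGACGTCA stood in 4% and 3.69%, CCGGAAG in 23% and 28.0%, and TATAAA in 8.67% and 5.59%. All motifs were searched on both strands (the NRF1 motif and TGACGTCA read the same on both), and the promoter windows of facing genes overlap, so both genes of a pair can count the same match.

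The peak lists held 28505 H3K4me3 peaks for LPS and 31398 for PBS, from 26748289 and 29681491 filtered tags, of which 14.0% and 17.8% lay in peaks. Over all 22219 regions where peaks of both lists meet, merged into 1 region each, the LPS to PBS log2 ratio of tags had a median of -0.31, so a ratio below 0 is common to the whole library pair. Among fixed cell type markers, 9 of 9 macrophage genes had a peak with LPS and 8 of 9 with PBS (summed tags 2264 and 2430, not scaled to the library). The gene without a PBS peak was Spi1, with 503 tags with LPS and 0 with PBS, so the sums depend on it. The strand of several markers was not known, among them Spi1, Csf1r, Adgre1 and Cd14, so their peaks cannot be placed at a start. T cell markers had 1 of 4 in each, and none of 3 B cell markers had a peak. Neutrophil markers had 2 of 5 with LPS (77 tags) and none with PBS. Mesothelium and fibroblast markers had none with LPS and 3 of 5 with PBS (213 tags), and mast cell and eosinophil markers 1 of 5 in each. Their part in the results was not tested, and in such bulk chromatin fewer cells carrying a mark and less mark per cell cannot be told apart.

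H3K4me3 sat at nearly all head-to-head gaps in both libraries. Of 581 head-to-head windows, 559 met a peak of both lists, or 96.2% (95% interval 94.3 to 97.6%). The share fell to 303 of 457 (66.3%, 61.8 to 70.6%) for head-to-tail windows and to 73 of 432 (16.9%, 13.5 to 20.8%) for tail-to-tail windows, and was 314 of 588 (53.4%) where the orientation was not known. Over all 2058 windows, 1249 were in both lists (60.7%, 58.5 to 62.8%), 29 with LPS only (1.41%), 59 with PBS only (2.87%) and 721 in neither (35.0%). The background was measured with windows reaching 1 kb to either side of the starts and ends of 14470 genes in no pair. Such a window holds 1 start or end, while a head-to-head window holds the starts of both genes and is wider by the gap, and it counts as listed if a peak meets either side. Around their starts, 53.8% were in both lists, 1.1% with LPS only, 2.81% with PBS only and 42.3% in neither, and around their ends 5.59%, 1.18%, 1.87% and 91.4%. The intervals are exact Clopper-Pearson intervals and cover counting error only. The head-to-head share was 42.4 percentage points above the share at single starts. Counted per gene, over the first kb of the gene body, the shares in both lists were 86.5% and 53.3%. Over all pairs the shares listed in 1 library only were near those at single starts. A window in neither list lay under the caller's threshold, which does not show that the mark is absent.

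**Figure D1:**
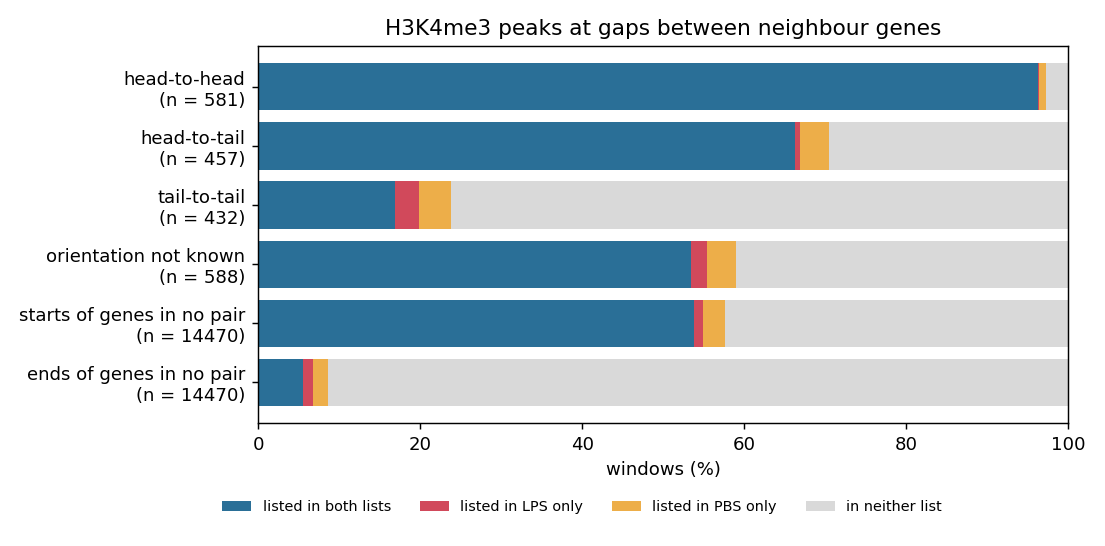
Share of windows (%, horizontal axis) met by an H3K4me3 peak of both lists, of the LPS list only, of the PBS list only or of neither, for each orientation of the pair and for the starts and ends of genes in no pair. The part in both lists falls from 96.2% at head-to-head gaps to 16.9% at tail-to-tail gaps.

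The CpG content of the promoters moved with this listing. The first kb of the gene body was met by peaks of both lists in 998 of 1154 head-to-head genes (86.5%), in 285 of 454 head-to-tail genes whose start faces the gap (62.8%) and in 7711 of 14470 genes in no pair (53.3%). Among promoters with an observed over expected CpG of 0.8 or more, the same shares were 91.8%, 85.5% and 91.0%. By the PBS list alone, head-to-head genes had 96.7% in that class and genes in no pair 92.7%. By the LPS list alone they had 91.9% and 91.6%. From 0.6 to 0.8 the shares in both lists were 87.7%, 82.0% and 85.2%, and from 0.4 to 0.6 they were 83.5%, 60.5% and 61.5%. Below 0.4 they were 42.2%, 28.1% and 15.2%. The head-to-head share in both lists was thus the highest in every class. The head-to-head windows in neither list had a median observed over expected CpG of 0.27 over 32 genes, and those in both lists had 0.85 over 1110 genes.

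The 16 head-to-head pairs with no peak in either list are named here after their values were seen. They include Kirrel2/Nphs1, whose gene Nphs1 encodes nephrin of the kidney filter, Mup15/Mup-ps12 and Mup19/Mup-ps16 of the major urinary protein cluster expressed in liver, and the olfactory receptors Olfr181/Olfr183. They also include Mlc1/Mov10l1, with Mov10l1 acting in the piRNA pathway of germ cells, Best1/Rab3il1, with Best1 encoding a chloride channel of the retinal pigment epithelium, and Slc30a3/Dnajc5g, with Slc30a3 encoding the zinc transporter of synaptic vesicles. The others were Ngef/Neu2, Ctnnd1/Btbd18, Cd160/Pdzk1, Tfpi2/Gngt1, Gfy/Pth2, Dusp3/Cfap97d1, Gm26650/Gm10410, Gm4779/8030474K03Rik and Gm9112/Dmrtc1b. Gene functions are given for a part of the 16 pairs only. H3K4me3 peaks of both lists lay within 5 kb of the gap at Kirrel2/Nphs1, Gfy/Pth2 and Dusp3/Cfap97d1. At Ctnnd1/Btbd18 an LPS peak lay that near, and the rest of the 16 had no peak there. Another 5 head-to-head windows met a peak with PBS only: Cks1b/Shc1 (214 tags), Mrpl49/Fau (208 tags), Pcgf2/Psmb3 (186 tags), Duox2/Duoxa2 (145 tags) and Bhmt2/Dmgdh (24 tags). Of these, Duox2 and Duoxa2 encode a hydrogen peroxide producing oxidase and its maturation factor. Within 5 kb of the gap there was an LPS peak at 4 of the 5, all but Bhmt2/Dmgdh. The single head-to-head window with LPS only was Acp4/Gm15517, with 21 tags.

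Around the gap the mark lay on both flanks, with a dip over the gap itself. At the centre of head-to-head gaps, a peak covered 54.6% of 581 windows with LPS and 64.4% with PBS. At 500 bp to either side, the cover was 82.8% and 81.8% with LPS and 88.3% and 87.6% with PBS. Head-to-tail windows, turned so that the gene whose start faces the gap lies to the right, had 36.5% and 41.8% at the centre, 58.0% and 62.6% at 500 bp into that gene and 20.8% and 21.2% at 500 bp into the gene that ends there. Tail-to-tail windows had 5.09% and 6.02% at the centre.

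**Figure D2:**
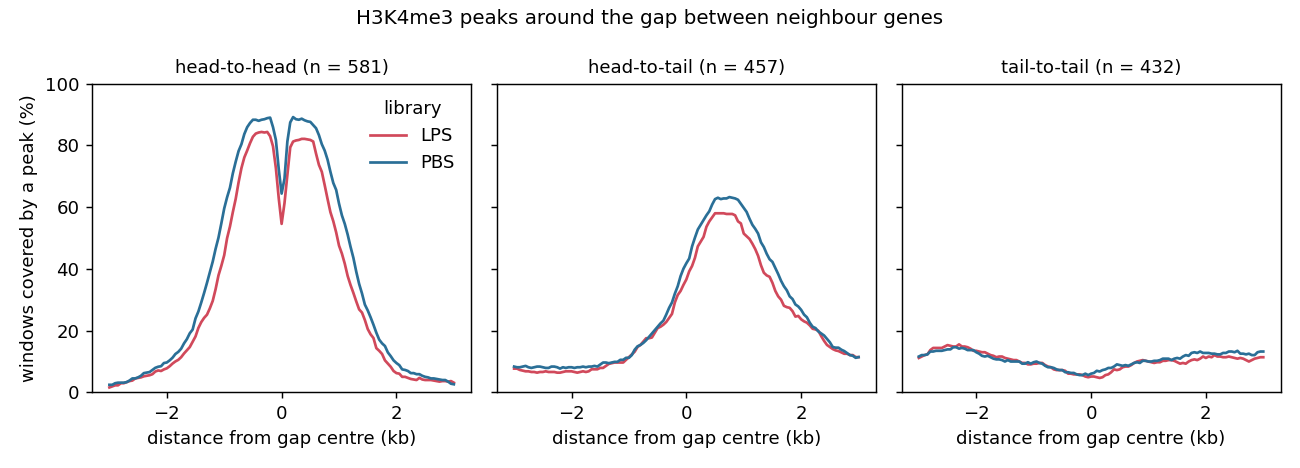
Share of windows covered by an H3K4me3 peak (%, vertical axis) against the distance from the centre of the gap (kb, horizontal axis), for head-to-head, head-to-tail and tail-to-tail pairs in the LPS and PBS libraries. Head-to-head windows show cover above 80% at 500 bp on each side and a dip at the centre, lower with LPS (54.6%) than with PBS (64.4%).

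The peaks took 3 layouts at head-to-head gaps. A single peak over both starts was found at 254 of 560 windows with a peak with LPS (45.4%) and at 306 of 564 with PBS (54.3%). Separate peaks on both sides with none over both starts were found at 201 (35.9%) and 202 (35.8%), and a peak on 1 side only at 105 (18.8%) and 56 (9.93%). No window had a peak inside the gap alone. A peak over both starts was most frequent at gaps under 100 bp, at 61.7% with LPS and 71.2% with PBS, and least frequent at gaps of 500 bp or more, at 18.9% and 26.3%. A peak on 1 side only followed the opposite order, from 13.1% with LPS and 4.98% with PBS at the shortest gaps to 51.4% and 36.8% at the longest. The summit of the strongest peak lay in the gap in 1.43% of windows with LPS and 1.60% with PBS. Outside the gap, it lay at a median of 287.5 bp (LPS) and 286 bp (PBS) beyond the facing end of the gene on that side.

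**Figure D3:**
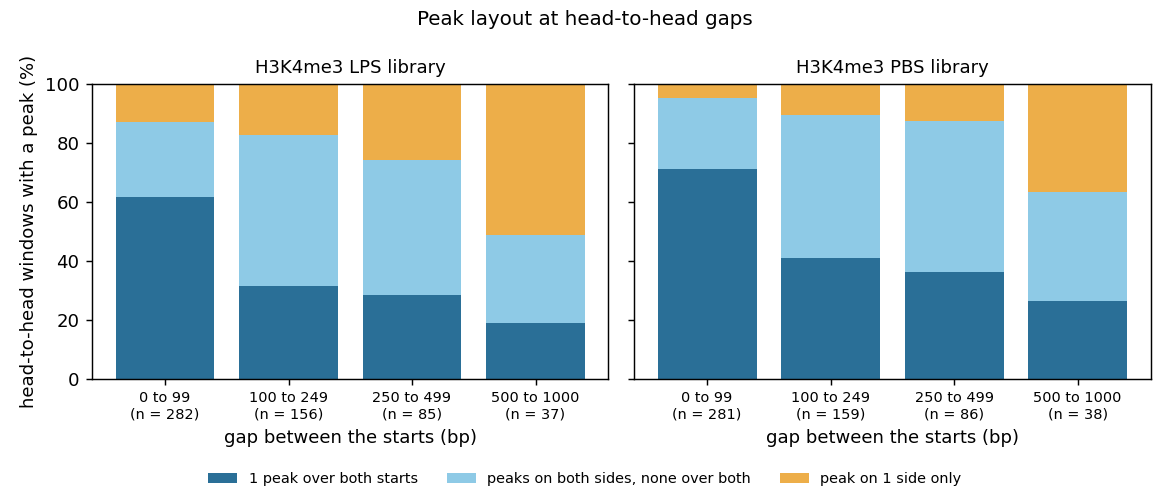
Layout of H3K4me3 peaks (% of head-to-head windows with a peak, vertical axis) by width of the gap (bp, horizontal axis), in the LPS library (left) and the PBS library (right). The share with 1 peak over both starts falls from 61.7% to 18.9% with LPS and from 71.2% to 26.3% with PBS as the gap widens.

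More gaps were marked on 1 side only with LPS than with PBS. Among the 559 windows in both lists, 446 (79.8%) had both sides marked, by 1 peak or separate peaks, in both libraries. In 60 (10.7%) both sides were marked with PBS and 1 side with LPS, and in 8 (1.43%) the reverse was seen. The 60 windows had a median log2 ratio of -0.76, but -0.09 per covered kb. The LPS library had fewer filtered tags and a lower share of them in peaks, and the part of depth and enrichment in this difference was not tested.

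The PBS list had separate peaks on both sides and the LPS list a peak on 1 side at 32 of these 60 gaps. The side without an LPS peak held a median of 87 tags with PBS, from 22 to 223, and 9 of the 32 held under 50. The pairs with most tags there are named after their values were seen. At Tln1/Creb3, on chromosome 4 with facing ends at 43562583 and 43562658, the side of Creb3, a transcription factor of the endoplasmic reticulum and Golgi membrane, held 223 tags with PBS and no listed peak with LPS, while the side of Tln1, encoding the integrin-linking protein talin, held 919 and 332. At Psme2/Rnf31, the side of Psme2, encoding a subunit of the interferon-inducible PA28 proteasome activator, held 199 tags with PBS only, with a score of 58.43. The side of Rnf31, encoding the catalytic subunit of the linear ubiquitin ligase complex, held 340 with PBS and 342 with LPS. The whole window held 638 tags with PBS and 405 with LPS, since a further peak of each list lay inside the 611 bp gap. Such a peak counts for neither side, and its position within the gap is not given here. Whether the LPS peak in the gap lies beside the start of Psme2 was thus not examined. At Lamtor2/Ubqln4, the side of Lamtor2, part of the lysosomal Ragulator complex, held 190 tags with PBS only. At Urod/Hectd3 the side of the heme synthesis gene Urod held 163, and at Bcl2l12/Irf3 the side of Bcl2l12 held 159 while that of Irf3, the interferon regulatory factor downstream of Toll-like receptors, held 288 with PBS and 192 with LPS. In the other direction, only the Foxa3 side of Foxa3/Sympk (94 tags) and the Trip4 side of Trip4/Csnk1g1 (31 tags) were listed with LPS and not with PBS among gaps with separate peaks on both sides.

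Where both genes had their own peak in both libraries, both flanks had lower scaled tag counts with LPS. There were 150 such gaps, and both sides had a ratio below 0 at 147 of them, opposite signs at 2 and a ratio above 0 on both sides at 1. Relative to the median merged region, both sides were below at 83. The same gene had the larger tag count in both libraries at 134 gaps (89.3%), and with PBS the larger side held a median of 1.56 times the tags of the smaller. The median absolute difference of the log2 ratio between the sides of a gap was 0.24. The median counting error (SE) of that difference was 0.26, and 16 of the 150 gaps differed by over 2 SE. A median absolute difference and an SE are unlike measures. Whether the sides differ by more than counting error was not tested. Across the 150 gaps the ratio on 1 side had a Pearson correlation of 0.26 and a Spearman correlation of 0.18 with that on the other, and a Pearson correlation of 0.02 per covered kb. These values describe points that share the same libraries and neighbouring DNA.

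The widest split, and the only difference of 1 or more on the log2 scale, was at Gla/Hnrnph2 on chromosome X. The side of Gla, encoding the lysosomal alpha-galactosidase, held 69 tags with LPS and 82 with PBS (log2 ratio -0.10, counting interval -0.58 to 0.38), and the side of Hnrnph2, a splicing regulator, held 32 and 90 (-1.34, -1.97 to -0.75). At Npc2/Isca2 on chromosome 12, the side of Npc2, encoding a lysosomal cholesterol carrier, held 166 and 289 tags (-0.65, -0.93 to -0.37), while that of Isca2, of mitochondrial iron-sulfur assembly, held 159 and 146 (0.27, -0.06 to 0.61). Per covered kb, the sides of Gla/Hnrnph2 were 0.05 and -0.44, nearer each other than by tags, and those of Npc2/Isca2 were -0.42 and -0.52. The other gap with opposite signs was Parp3/Rrp9 on chromosome 9, where the side of Parp3, encoding a DNA repair polymerase of ADP-ribose, held 445 and 402 tags (0.30) and that of Rrp9, of ribosomal RNA processing, 156 and 211 (-0.29). The gap with both sides above 0 was H2-T22/Gm6034 on chromosome 17, where the side of the nonclassical MHC class I gene H2-T22 held 317 and 215 tags (0.71) and that of Gm6034 187 and 186 (0.16). Per covered kb, the sides of Parp3/Rrp9 were -0.06 and -0.45, both below 0, and those of H2-T22/Gm6034 were -0.05 and 0.04. These 4 pairs were picked after the values were seen.

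**Figure D4:**
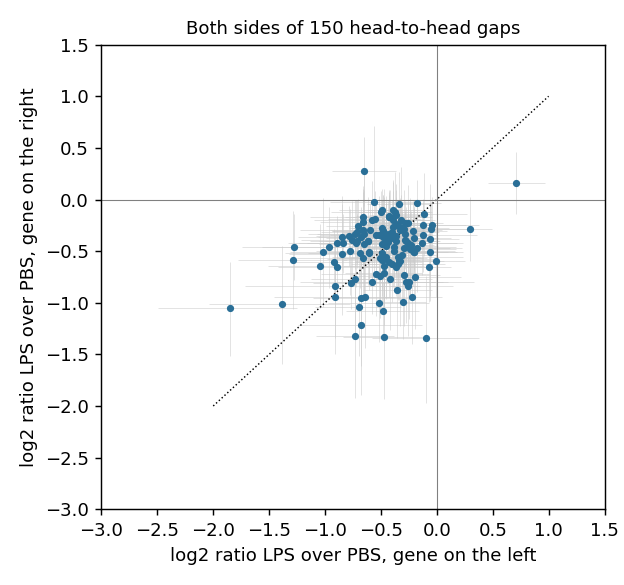
Log2 ratio of LPS to PBS H3K4me3 tags on the side of the right gene (vertical axis) against that on the side of the left gene (horizontal axis), with counting intervals in grey and equal values on the dotted line, for the 150 head-to-head gaps with separate peaks on both sides in both libraries. Of these, 147 have both values below 0.

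The tag counts of head-to-head windows were lower with LPS after scaling to the filtered tags of each library. The median count was 231 tags with LPS and 351 with PBS, over 1855 and 2252 covered bp, and the median log2 ratio was -0.42 (95% interval -0.43 to -0.40, quartiles -0.56 and -0.30). The ratio was below 0 in 546 of 559 windows (97.7%). Head-to-tail windows had a median of -0.36 (-0.39 to -0.33) and tail-to-tail windows of -0.22 (-0.30 to -0.15). Over all 1249 windows in both lists the median was -0.39 (-0.41 to -0.37), with 1149 below 0 (92.0%), and over single starts of genes in no pair it was -0.36 (-0.37 to -0.36), with 90.9% below 0. These intervals treat the windows as independent. Per covered kb, the medians were -0.24 for head-to-head, -0.21 for head-to-tail, -0.18 for tail-to-tail and -0.21 for single starts, against -0.15 over all merged regions. Relative to the median merged region, head-to-head windows stood at -0.11 with 416 of 559 below it (74.4%), head-to-tail windows at -0.06 and single starts at -0.06 with 60.5% below it, while tail-to-tail windows stood above it, at 0.09. The lower level common to the library cannot be told apart from one due to the treatment.

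**Figure D5:**
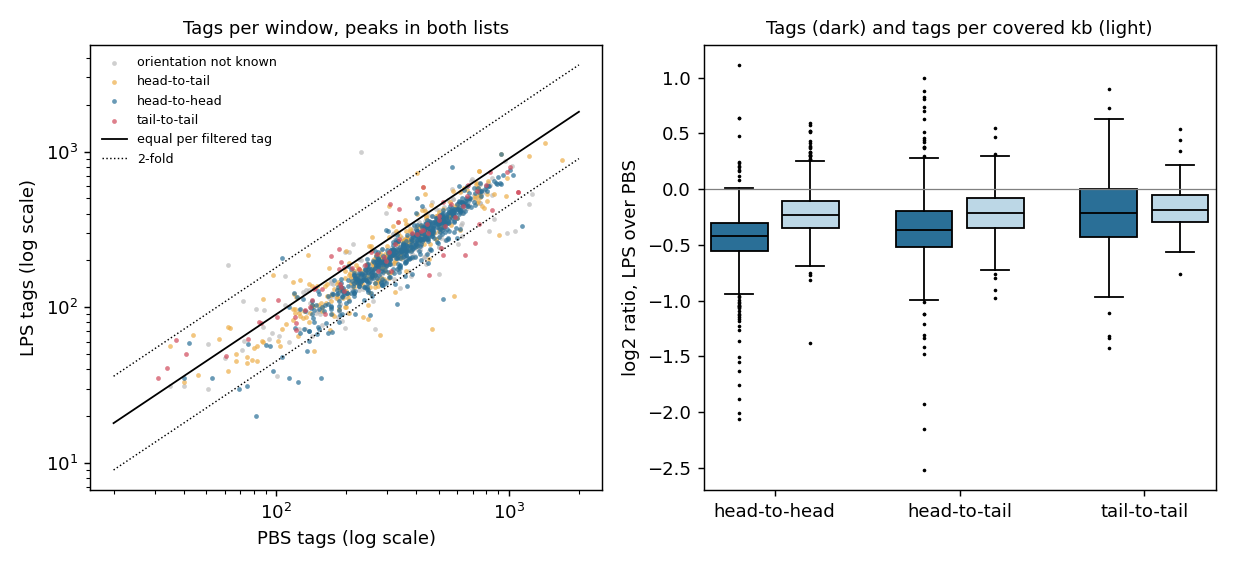
Left, H3K4me3 tags with LPS (vertical, log scale) against PBS (horizontal, log scale) for each window in both lists, coloured by orientation, with a solid line at equal tags per filtered tag and dotted lines at 2-fold. Right, log2 ratio of LPS over PBS by orientation, from tags (dark) and tags per covered kb (light), with medians and quartiles as boxes, whiskers to the farthest value within 1.5 times the box height and points beyond them; the dark head-to-head median is -0.42 and the light one -0.24.

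The count of tags moved with the ratio too. In windows with 200 to 400 tags in both libraries together, head-to-head gaps had a median of -0.50 (-0.56 to -0.45, n = 120) and single starts of -0.42 (-0.43 to -0.40). With 400 to 800 tags the medians were -0.42 and -0.37, and with 800 or more they were -0.33 and -0.32. The distance between the groups was thus smallest in the windows with most tags.

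Few windows differed by 2-fold or more. Among the 1236 windows in both lists with at least 100 tags together, 3 were at least 2-fold higher with LPS (0.243%) and 53 at least 2-fold higher with PBS (4.29%). The background over 7488 single starts was 0.334% and 3.51%, and over all merged regions 0.559% and 3.19%, so both shares were near the background. With the tags of each window scaled to the median merged region, the counts were 10 and 22. Per covered kb, none was higher with LPS and 1 with PBS (0.0809%), the head-to-head pair Tmem209/Ssmem1 with 39 and 97 tags, where the background was 0% and 0.0935% over single starts and 0.00559% and 0.0671% over merged regions.

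The lowest ratios fell on windows where the PBS peaks were wider than the LPS peaks. At Fkbp3/Fancm, on chromosome 12, where Fancm encodes the DNA translocase of the Fanconi anaemia pathway and Fkbp3 a nuclear prolyl isomerase, 113 tags with LPS over 1.445 kb stood against 523 with PBS over 3.81 kb. The log2 ratio was -2.06 (counting interval -2.37 to -1.76), and -0.66 per covered kb. At Ptcd3/Polr1a, on chromosome 6, where Polr1a encodes the largest subunit of RNA polymerase I and Ptcd3 a protein of the mitochondrial ribosome, there were 35 and 156 tags (-2.01, -2.58 to -1.47). There the LPS list had 1 peak, on the Polr1a side, and the PBS list had 1 on each side. Calr3/1700030K09Rik, with the testis chaperone calreticulin 3, had 20 and 82 tags (-1.89, -2.67 to -1.17), and Awat2/Igbp1, with the wax synthase Awat2, had 33 and 124 (-1.76, -2.36 to -1.20). At both pairs the LPS peak lay on 1 side and the PBS peaks on both. Per covered kb these 3 pairs had -0.57, -0.52 and -0.59.

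The other 4 of the 8 lowest were not known to be head-to-head. Mtrf1l/Rgs17 (a mitochondrial release factor beside a regulator of G protein signalling) held 73 tags with LPS and 465 with PBS (-2.52, -2.90 to -2.16). Kri1/Cdkn2d, beside the cyclin-dependent kinase inhibitor p19, held 118 and 582 (-2.15). Over whole merged regions, which also count peaks just outside the window, Mtrf1l/Rgs17 had -0.47, Kri1/Cdkn2d -0.90 and Fkbp3/Fancm -0.73, since the LPS list split the PBS peak there into 2. Ppox/Usp21, with Ppox of heme synthesis, held 66 and 279 (-1.93), and Cntrob/Trappc1, with the centriole protein centrobin, held 72 and 266 (-1.74). Per covered kb, Mtrf1l/Rgs17 had -0.90, Kri1/Cdkn2d -0.29, Ppox/Usp21 -0.21 and Cntrob/Trappc1 -0.14.

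The highest ratios were fewer and depended on width. At Grn/Fam171a2 on chromosome 11, where Grn encodes progranulin, a lysosomal and secreted protein of macrophages, the LPS list held 999 tags over 9.453 kb and the PBS list 232 over 1.54 kb. The log2 ratio was 2.26 (2.05 to 2.47), but -0.36 per covered kb and 0.23 over merged regions. Gm52351/Pdgfrb, with the gene of a platelet-derived growth factor receptor, held 188 and 62 tags (1.75, 1.33 to 2.19) and -0.13 per covered kb. At Ifit1bl2/Ifit1, whose gene Ifit1 encodes an interferon-induced RNA-binding protein, there were 207 and 106 tags (1.12, 0.77 to 1.47), and 0.03 per covered kb. With windows reaching 0.5 kb its ratio was 0.58, and with tags in proportion to the part inside the window 0.715, both under 2-fold. It was the only pair known to be head-to-head among the 8 highest. The 5 others were Ogfod2/Arl6ip4 (726 and 403 tags, counting interval 0.82 to 1.18), Shisa7/Isoc2b (161 and 97, 0.88), Mllt6/Cisd3 (217 and 137, 0.81), Dmtn/Fgf17 (109 and 72, 0.75) and Spag5/Aldoc (66 and 44, 0.74). Over merged regions Ogfod2/Arl6ip4 had -0.17 and Shisa7/Isoc2b 0.43, while the ratios of Mllt6/Cisd3, Dmtn/Fgf17 and Spag5/Aldoc did not change. Per covered kb, 6 of the 8 had a ratio at or below 0, and only Ifit1bl2/Ifit1 (0.03) and Shisa7/Isoc2b (0.24) had a ratio above 0.

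Of the 5 windows with most tags, 4 had ratios nearer 0 than the median over all windows in both lists (-0.39), and Gpsm3/Pbx2 did not. The orientation of Rhof/Setd1b is not known and the other 4 pairs are head-to-tail, so they are not known shared promoters. Nrm/Ppp1r18, with the nuclear envelope protein nurim, held 1143 tags with LPS and 1430 with PBS (-0.17, -0.29 to -0.06). Maz/Kif22, with a zinc finger factor and a mitotic kinesin, held 931 and 1216 (-0.24), Rhof/Setd1b, whose gene Setd1b encodes an H3K4 methyltransferase, held 809 and 1031 (-0.20), and H2-Ke6/Slc39a7, with a zinc transporter, held 965 and 928 (0.21, 0.08 to 0.34). Gpsm3/Pbx2, with a G protein modulator and a homeobox factor, held 879 and 1685 (-0.79, -0.91 to -0.67), and -0.33 over merged regions.

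Most of the single-list windows with most tags had the other library's peak nearby. The share over all single-list windows is not given here, and no pair named in this paragraph is known to be head-to-head. The LPS-only windows with most tags were Rhoc/Mov10 (763), Pnpla2/Cracr2b (552), Cdk5r1/Myo1d (545), Mogs/Wbp1 (360) and Hgh1/Tssk5 (358), and each had a PBS peak within 5 kb of the gap. Pnpla2 encodes the main triglyceride lipase. The PBS-only windows with most tags were Cracr2b/Cd151 (1167), Prdx5/Esrra (882), Phf23/Dvl2 (867), Lamtor4/Map11 (844) and Icam1/Icam4 (680). Icam1 encodes an adhesion molecule for leukocytes, and Esrra encodes the estrogen-related receptor of mitochondrial metabolism. Within 5 kb of the gap there was an LPS peak at 3 of these 5 and none at Cracr2b/Cd151 and Prdx5/Esrra. At 4 LPS-only and 3 PBS-only pairs the peak met a peak of the other list outside the window, with log2 ratios over the merged region of -0.09 to 0.33 and -0.59 to -0.54. Pnpla2/Cracr2b and Cracr2b/Cd151 are neighbouring gaps on chromosome 7, with facing ends at 141460743 and 141460875 and at 141466613 and 141467362, and the first met a peak with LPS only and the second with PBS only.

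The share of immune genes in pairs ran from 2.78% to 25.8% by list, against 16.9% of all protein-coding genes. Of 63 interferon-stimulated genes, 11 were in pairs (17.5%), in 10 windows, of which 8 were in both lists and 2 in neither. Their median log2 ratio was 0.15, with 3 of 8 below 0, where the median over all windows in both lists was -0.39 and that over single starts of genes of the same list -0.06. All 8 were above the median merged region, at a median of 0.46 relative to it, while 66.1% of all windows in both lists were below it. Per covered kb, 5 of the 8 were below 0, where 1063 of all 1249 windows in both lists were. Their median per covered kb was -0.16, against -0.22 over all windows in both lists. Beside Ifit1bl2/Ifit1, 3 windows that are not head-to-head are named after their values were seen. The tail-to-tail window of Phrf1/Irf7, with interferon regulatory factor 7, held 429 and 337 tags (0.50, 0.29 to 0.71) and 0.54 per covered kb. Xaf1/Fbxo39 held 63 and 57 (0.29, -0.25 to 0.84), and 0.05 per covered kb. Tap1/Psmb8, of peptide transport and the immunoproteasome, held 399 and 402 (0.14, -0.06 to 0.34), and -0.25 per covered kb. The facing pair Psmb9/Tap1, with another immunoproteasome subunit, had 1 peak over both starts in each library, with 503 and 628 tags (-0.17, -0.34 to 0.00).

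Of 45 NF-kB and Toll-like receptor genes, 7 were in pairs (15.6%), in 8 windows, 7 of them in both lists. All 7 ratios were below 0, where 92.0% of all windows in both lists were, and their median was -0.51. Relative to the median merged region 6 of 7 were below, against 66.1% of all windows in both lists. Pus7l/Irak4, whose gene Irak4 encodes the kinase next to MyD88, held 141 and 325 tags (-1.05, -1.35 to -0.77). Nfkbib/Sirt2, with an inhibitor of NF-kB and a deacetylase, held 314 and 518 (-0.57, -0.78 to -0.37). Of 31 antigen presentation genes, 8 were in pairs (25.8%), in 9 windows, 8 of them in both lists, with a median of -0.57 and 6 of 8 below 0 (5 below the median merged region). Per covered kb their median was -0.12, nearer 0 than that of all windows in both lists (-0.22). Rfxank, whose product activates MHC class II genes, faced both Borcs8 and Gm45929 in the annotation, and both pairs have the same peaks of 139 and 284 tags (-0.88, -1.18 to -0.58), with the Rfxank side listed with PBS only. Psme2/Rnf31 held 405 and 638 tags (-0.51, -0.69 to -0.32). Of 36 inflammatory mediators, 1 was in a pair (2.78%). This was Csf3/Med24, with the gene of granulocyte colony-stimulating factor, listed with LPS only (202 tags), by a peak with a score of 64.7, and a PBS peak lay within 5 kb of the gap.

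Lists of housekeeping, histone and zinc finger genes had medians of -0.27 to -0.48, on both sides of the -0.39 over all windows in both lists. Per covered kb the medians were -0.19 to -0.30, on both sides of -0.22, with zinc finger genes at -0.19. The share of their genes in pairs, against 16.9% of all protein-coding genes, was 41.4% for DNA replication and repair, 38.5% for the mitochondrial ribosome, 48.0% for the respiratory chain and 27.3% for the cytosolic ribosome, but 10.8% for zinc finger genes. Of all 2058 windows, 60.7% were in both lists, and of head-to-head windows 96.2%. Of all 1249 windows in both lists, 92.0% had a ratio below 0, 66.1% were below the median merged region and 1063 were below 0 per covered kb. These values are the background of the counts that follow. Relative to the median merged region these medians ran from -0.17 for the mitochondrial ribosome to 0.04 for tRNA synthetases, the only one of these lists above it. DNA replication and repair genes had 61 windows, 30 of them head-to-head, and all 30 were in both lists, where 96.2% of all head-to-head windows were. Over the 47 windows in both lists the median was -0.44, from -2.06 at Fkbp3/Fancm to 0.89 at Man2c1/Neil1. The textbook pair Atm/Npat, a damage kinase facing an activator of histone genes, held 275 and 448 tags (-0.55, -0.78 to -0.33), Brca1/Nbr1, a recombination gene facing an autophagy receptor gene, 160 and 259 (-0.54, -0.84 to -0.25), and Mcm4/Prkdc, a replication helicase subunit beside the catalytic subunit of DNA-dependent protein kinase, 191 and 318 (-0.59, -0.85 to -0.32). Of 9 textbook bidirectional pairs looked up, the other 6 have overlapping bodies in the gene table and so are not among the windows.

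Mitochondrial ribosome genes had 34 windows, 25 in both lists, with a median of -0.48 and all 25 below 0 (23 below the median merged region and 24 below 0 per covered kb). Respiratory chain genes had 50, 42 in both, with a median of -0.45 and 41 below 0 (36 below the median merged region), the lowest at Impdh2/Ndufaf3 (-1.42). Cytosolic ribosome genes had 35, 29 in both, with a median of -0.45, and proteasome genes 21, 13 in both, with a median of -0.34. tRNA synthetases had 15, 11 in both (-0.27), zinc finger genes 41, 26 in both (-0.42), and polymerase II, mediator and splicing genes 46, 30 in both (-0.41). Replication-dependent histone genes, which lie in dense clusters, had 26 windows, 10 of them head-to-head, and all were in both lists. Of all windows 60.7% were, and of all head-to-head windows 96.2%. Some of the histone windows have the same peaks, and the 26 held 24 distinct sets of peaks. All 26 ratios were below 0, with a median of -0.45 (21 below the median merged region and 23 below 0 per covered kb). Their ratios ran from -1.12 at H2ac6/H2bc4 to -0.13 at H2ac15/H2bc15. Histone genes are near-identical copies, so reads that fit several of them make these values uncertain. Single starts of genes in no pair from the same lists also had medians below 0. They were -0.49 for the mitochondrial ribosome, -0.44 for the respiratory chain, -0.38 for the cytosolic ribosome and -0.31 for the proteasome. For tRNA synthetases and zinc finger genes the median was -0.50, for polymerase II, mediator and splicing genes -0.45 and for histone genes -0.43. Lists of genes of other tissues had few windows: olfactory and vomeronasal receptors 5, with 1 in both lists, keratins 2, with none, and Hox genes 4, with 2.

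H3K9me3 peaks met few of the windows and were weak. Of the 581 head-to-head windows, 90 met an H3K9me3 peak with LPS (15.5%) and 60 with PBS (10.3%), 35 of them in both lists. Head-to-tail windows had 8.75% and 7.44%, tail-to-tail windows 3.01% and 1.62%, and single starts of genes in no pair 13.0% and 10.1%. With a score of 100 or more, the head-to-head shares were 4.13% and 2.93%. The H3K9me3 peaks held as few as 12 and 11 tags, and the caller's fragment size estimate was 71 and 66 bp there against 149 and 142 bp for H3K4me3. Ctnnd1/Btbd18 met an H3K9me3 peak in both lists and no H3K4me3 peak in either. The imprinted pair Peg3/Usp29 on chromosome 7, whose paternal allele alone is expressed, met a peak of both marks in both treatments, with 48 H3K4me3 tags with LPS and 106 with PBS (-0.99, -1.52 to -0.49). Both pairs were picked after their values were seen.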

How the data were processed

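Peak tables of 4 ChIP-seq libraries were used. Bowtie 0.12.8, MACS 1.4.2, CASAVA 1.4 and DiffBind and the build mm10 are named in the submitters' processing notes. Per the file headers, peaks were called in each library separately without a control, at a p threshold of 1e-05, with at most 1 tag kept per position. Each deposited table gives the count of tags in a peak, its length and summit, a score, the caller's p-value on a negative log10 scale times 10 (50 or more in every list), and a fold enrichment ratio, which was not compared between libraries.

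Pairs, gaps and windows came from RefSeq tables of GRCm38.p6, with orientation where the promoter table gives the strand. Whole peaks that meet a window by at least 1 bp were summed. The log2 ratio divides LPS by PBS tags, each per filtered tag of its library from the headers (26748289 and 29681491 for H3K4me3, 28586946 and 27727997 for H3K9me3). Counting intervals are exact 95% intervals, and intervals of medians come from ranked values. No test was run, as each group has 1 library. Named pairs were the 8 highest and 8 lowest ratios among windows in both lists with at least 100 tags, the 5 with most tags, the 5 LPS-only and 5 PBS-only windows with most tags, and head-to-head pairs with immune genes, with each set of identical peaks counted once for the ranks. Lists are given with the pairs of their lowest or highest ratio, and textbook bidirectional pairs come from a fixed list. Other pairs are said to be picked or named after their values were seen, Csf3/Med24 being the single pair of its list. The windows, gene lists and rules were chosen with earlier results of these data known. The scripts were tested on simulated data. Other window sizes, gaps, scores, overlaps and scalings were tried. Python 3.11.15, pandas 2.3.3, numpy 2.4.6 and scipy 1.17.1 were used.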

Additional observations from a re-analysis of the deposited data

How the results depend on the processing

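The share of windows in both lists (60.7%) was 65.9% with gaps up to 0.5 kb, 57.5% with windows reaching 0.5 kb, 67.8% with windows reaching 2.5 kb, 57.0% with scores of 100 or more and 53.2% where peak and window had to share 50% of the shorter. The share in neither list was 30.6%, 37.9%, 28.1%, 38.1% and 41.6% in the same order, and that with PBS only was 3.89% at scores of 100 or more. The head-to-head share was 93.5% at scores of 100 or more and 93.5% with the 50% overlap. The tail-to-tail share was 11.8% with windows reaching 0.5 kb, 33.3% reaching 2.5 kb and 7.87% with the 50% overlap. The H3K9me3 shares at head-to-head windows were 4.13% with LPS and 2.93% with PBS at scores of 100 or more. The median log2 ratio (-0.39) was -0.34 with tags taken in proportion to the part inside the window, -0.22 per covered kb, -0.29 scaled by all tags and -0.084 scaled to the median merged region.

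The count at least 2-fold higher with LPS (3) was 1 at scores of 100 or more, 13 with the 50% overlap, 7 with tags in proportion, 0 per covered kb and 10 scaled to the median merged region. The count for PBS (53) was 82 at scores of 100 or more, 1 per covered kb and 22 scaled to the median merged region. Per covered kb, the ratios of Gm52351/Pdgfrb (-0.13) and Grn/Fam171a2 (-0.36) turned from positive to negative. The cause was not tested. The alternatives by orientation, the H3K9me3 score limit and the merged regions at named pairs were chosen after seeing the data.

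No replicate was left out in turn, as there is 1 library per group. No paired analysis was possible because each group has 1 library and no result comes from a test. Peaks as weak as 17 tags for H3K4me3 have wide counting intervals, and the orientation of 588 pairs is not known here.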
